A study of Homo sapiens with 6 samples.

Results

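The hypoxia and glycolysis genes described here are 38 listed genes that encode the hypoxia-inducible factor (HIF) alpha subunits, oxygen-sensing enzymes, glucose and lactate transporters, glycolytic enzymes and other genes known to respond to low oxygen. A probe was a member when the array's gene name equalled a listed symbol and its detection p-value was under 0.01 on at least 1 of the 6 arrays. By this rule 50 of the 47322 probes on the array were members, out of 69 probes that carry a listed name, and they measured 34 of the 34694 gene names in the table. RNA came from 6 samples of the human bladder cancer line RT4 and lines derived from it, each hybridised to 1 Illumina HumanHT-12 version 4 bead array. All were grown in the same supplemented minimal medium with 10% serum, per the labels.

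The groups were as follows. RT4P live cells were the untreated parental cells. Blebbishields, the structures left after apoptosis, were collected after 24 h in 1 uM cisplatin, a DNA crosslinking drug, with 20 mM lithium chloride, and held sphere-forming and other blebbishields together. Spheres had the same treatment followed by 4 h of transformation, and were isolated as pure spheres. RT4P-BSE2 were live cells that had gone through the blebbishield emergency program 2 times in series. RT4v6 were live cells passaged in mice 6 times to enrich cancer stem cells. PBSHMS, sampled live, came from fusing RT4 blebbishields with human blood mononuclear cells. Those last 3 were untreated at sampling. Each group is 1 sample, so no difference below has a replicate check, no p-value is given, and every statement describes these 6 arrays.

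HIF is a transcription factor made of an alpha subunit (HIF1A, EPAS1 or HIF3A) and the partner ARNT. In oxygen, prolyl hydroxylases of the EGLN family modify the alpha subunit, the VHL ubiquitin ligase binds it and it is degraded, so that its activity is set largely at the protein level. When the alpha subunit is stable, HIF binds short elements with the core ACGTG or GCGTG and raises transcription of glucose transporters, glycolytic enzymes, angiogenic factors, collagen-modifying enzymes and mitophagy receptors. Glycolysis splits glucose into pyruvate, which lactate dehydrogenase turns into lactate.

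Upstream sequences are shown for 5 members. PLOD2, BNIP3 and ALDOC had the 3 largest differences upward on the RT4P-BSE2 array, P4HA2 was higher there with neither motif, and GAPDH is a glycolytic gene whose chosen probe differed from RT4P live cells by at most 1.25-fold. Each is the 250 bases before the RefSeq gene start on GRCh38.p14, at chr3:146161185-146161434 (- strand), chr10:131981924-131982173 (- strand), chr17:28576896-28577145 (- strand), chr5:132227092-132227341 (- strand) and chr12:6535014-6535263 (+ strand), written along the gene's strand. Capitals mark ACGTG or GCGTG on either strand, so that CACGT and CACGC are the reverse-strand forms.
PLOD2: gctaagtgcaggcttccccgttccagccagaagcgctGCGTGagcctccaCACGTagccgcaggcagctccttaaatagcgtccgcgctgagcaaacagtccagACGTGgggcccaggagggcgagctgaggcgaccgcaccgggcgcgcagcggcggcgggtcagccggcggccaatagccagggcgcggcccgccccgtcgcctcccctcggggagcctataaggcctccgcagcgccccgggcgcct
BNIP3: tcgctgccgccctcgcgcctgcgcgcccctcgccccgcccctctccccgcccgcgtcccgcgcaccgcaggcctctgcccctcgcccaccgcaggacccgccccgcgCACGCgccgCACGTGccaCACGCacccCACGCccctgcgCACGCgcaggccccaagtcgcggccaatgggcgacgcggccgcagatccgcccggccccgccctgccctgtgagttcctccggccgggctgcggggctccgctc
ALDOC: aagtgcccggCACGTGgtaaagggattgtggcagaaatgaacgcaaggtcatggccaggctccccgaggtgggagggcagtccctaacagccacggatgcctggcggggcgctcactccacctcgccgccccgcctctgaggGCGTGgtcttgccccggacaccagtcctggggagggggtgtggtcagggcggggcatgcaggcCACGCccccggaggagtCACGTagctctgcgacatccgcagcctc
P4HA2: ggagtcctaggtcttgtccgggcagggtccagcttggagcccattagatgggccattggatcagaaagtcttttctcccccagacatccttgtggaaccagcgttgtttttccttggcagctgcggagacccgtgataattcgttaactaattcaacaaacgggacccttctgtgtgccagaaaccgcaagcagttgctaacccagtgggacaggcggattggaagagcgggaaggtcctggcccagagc
GAPDH: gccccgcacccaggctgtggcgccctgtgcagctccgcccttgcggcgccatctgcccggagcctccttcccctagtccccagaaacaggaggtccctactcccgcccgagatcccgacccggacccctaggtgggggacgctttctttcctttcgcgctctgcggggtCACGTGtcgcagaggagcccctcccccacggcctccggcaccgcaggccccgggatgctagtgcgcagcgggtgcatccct
In this window PLOD2 held 2 matches to ACGTG and 1 to GCGTG, BNIP3 held 2 and 4, and ALDOC held 3 and 2. GAPDH held 2 matches to ACGTG, both in one CACGTG, which reads ACGTG on each strand and was counted on each. P4HA2 held none.

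The RefSeq promoter table, with 250 bases before to 50 after each start, matched 20 of the 38 listed genes. ACGTG was found on either strand in 12 of these 20 promoters, against 21.4% of 35116 promoters and 23.0% of the 22198 of protein-coding genes. GCGTG was found in 10 of the 20, against 36.5% of all and 43.0% of protein-coding promoters. Either motif was present in 17 of the 20 (85.0%), against 48.4% and 54.7%. Among the members at least 2-fold higher in RT4P-BSE2 with a listed promoter, 5 of 6 held either motif, and among the other measured members 11 of 13 did. The motifs were thus present in similar shares of both sets, and a match describes letters only.

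Signals are given as log2 normalized values, computed from the authors' non-normalized intensities by background correction and quantile normalization, and a gene with several probes is represented by its detected probe of highest mean. Levels are compared between arrays for a gene and never between genes. A gene is called higher or lower at 2-fold or more, and an array on which it went undetected gives only a bound, written "at least". The arrays detected between 14749 probes (blebbishields) and 17593 (spheres), with a mean raw signal of 263.2 on the blebbishield array and 349.5 to 389.2 on the other 5. All 17 names on a urothelial marker list were detected on every array, including GATA3, FOXA1, PPARG and the uroplakins, where TACSTD1 is an older name of EPCAM. Of 18 leukocyte markers 12 were detected on none, among them PTPRC, the CD3 chains, MS4A1 and LYZ, also not on the array of PBSHMS, the line made by fusion with blood cells. Of 9 fibroblast and endothelial markers only VWF was detected. The summed raw signal of the 6 leukocyte genes with a detected probe ran from 671.4 (PBSHMS) to 779.2 (spheres), and that of the urothelial genes from 25654.1 (blebbishields) to 54089.3 (spheres). As in any bulk sample, fewer cells of a type and less RNA per cell cannot be told apart.

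Not every listed gene could be followed. HIF3A, with 6 probes, and MXI1, a MAX-binding repressor of MYC activity with 4, had lowest detection p-values of 0.018 and 0.022 and so fell just outside the rule. Just inside it was PDK1, with a lowest p-value of 0.008 and 2 arrays detected. SLC2A3 and LOX were each detected on 1 array only. KDM3A, a histone demethylase, and BHLHE40, a transcriptional repressor, had no probe under those symbols, but RefSeq synonyms pair them with the array's JMJD1A and BHLHB2. Their values are given below and enter no count. The chosen probe was detected on all 6 arrays for 30 of the 34 genes.

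The members varied between the arrays. Over the 6 arrays the highest and lowest value differed at least 2-fold for 24 of 34 members (70.6%), against 35.0% of 16441 detected genes. This range takes undetected values as measured, for members and all genes alike. SLC2A3 and LOX, among the 24, were detected on the RT4P-BSE2 array only, so their ranges rest on undetected values. RT4P-BSE2 had the highest of the 6 values for 23 of 34 members, 67.6% against 12.6% of all detected genes, and the lowest for 0, against 13.1%. SLC2A3 and LOX, among the 23, became members only through detection on that array, which fixed their place. Without genes detected on RT4P-BSE2 only, a setting chosen after seeing the data, it was highest for 21 of 32 members (65.6%), against 10.04% of all such genes. Some of these places were narrow. GAPDH, ANKRD37, HK2, ENO1, PFKP and TPI1 led the next array by only 1.01-fold to 1.07-fold. By other detected probes HK2 was highest in PBSHMS (8.13), and GAPDH in spheres (13.18) or in blebbishields (12.61). Blebbishields were highest for 4 members (EPAS1, SLC16A3, GPI and VEGFA), where the background was 22%. RT4v6 was highest for 5 (HIF1A, HK1, ALDOA, PGAM1 and PDK1; background 17.7%), spheres for EGLN3 alone (19.1%), PBSHMS for ADM alone (15.6%) and RT4P live cells for none (12.9%). PBSHMS had the lowest value for 11 of 34 members (32.4%), against 16.1% of all detected genes. The lowest value was in blebbishields for 8 members (background 28.2%), in RT4v6 for 7 (14.9%), in spheres for 6 (14.8%) and in RT4P live cells for 2 (12.7%). Undetected values were ranked as measured here. SLC2A3 and LOX in blebbishields, ANKRD37 in spheres and PDK1 in PBSHMS took the lowest place with an undetected value, so these places are uncertain. The members were proposed with earlier results of these arrays known, so these counts describe them and are not independent evidence of a direction.

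**Figure D1:**
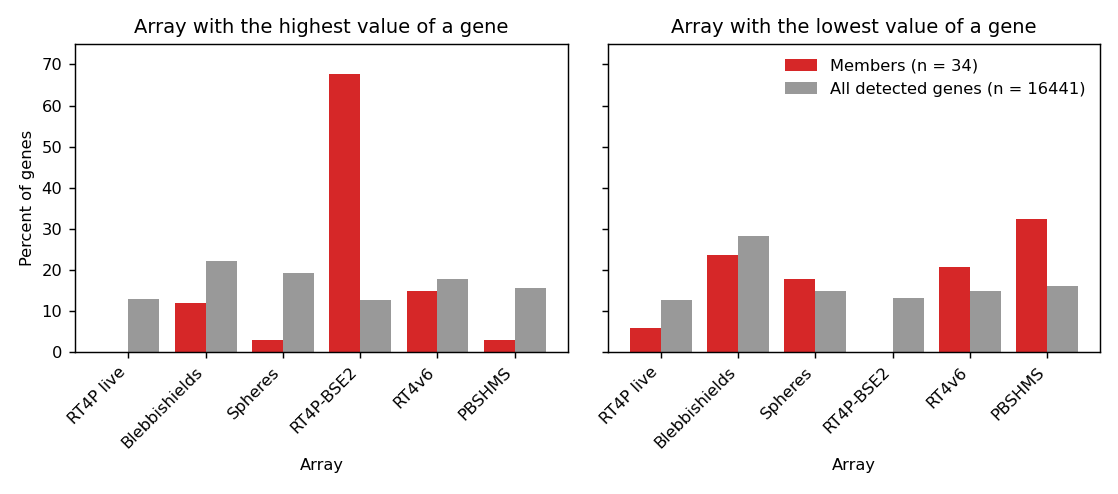
Bars give the percent of the 34 members (red) and of all 16441 detected genes (grey) whose highest value (left) or lowest value (right) was on each of the 6 arrays. The RT4P-BSE2 bar of the members stands at 67.6% for the highest value and at 0 for the lowest.

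RT4P-BSE2 was compared with RT4P live cells to describe what differed in cells that had been through the program 2 times. Of 34 members measured, 9 were at least 2-fold higher (26.5%, where 1.3% of 14403 genes were called higher) and 0 lower (0.271% of all genes). The median log2 difference of the members was 0.58, against -0.01 over all genes. By the chosen probe 31 of 34 were above 0, where 46.8% of all genes were. The 9 were the collagen-modifying enzymes PLOD2 and P4HA2, the mitophagy receptor BNIP3, the glycolytic enzymes ALDOC and ENO2, the flux regulators PFKFB3 and PFKFB4, the glucose transporter SLC2A3 and NDRG1. SLC2A3 was a member only through detection on this array, and without genes detected on RT4P-BSE2 only the count was 8 of 32 (1.29% of all such genes), with 29 of 32 above 0. As a gauge of spread in this comparison, 2 probes of a gene differed with a probe SD of 0.22 on the log2 scale, which also holds any difference between transcripts and does not stand for replicate error.

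**Figure D2:**
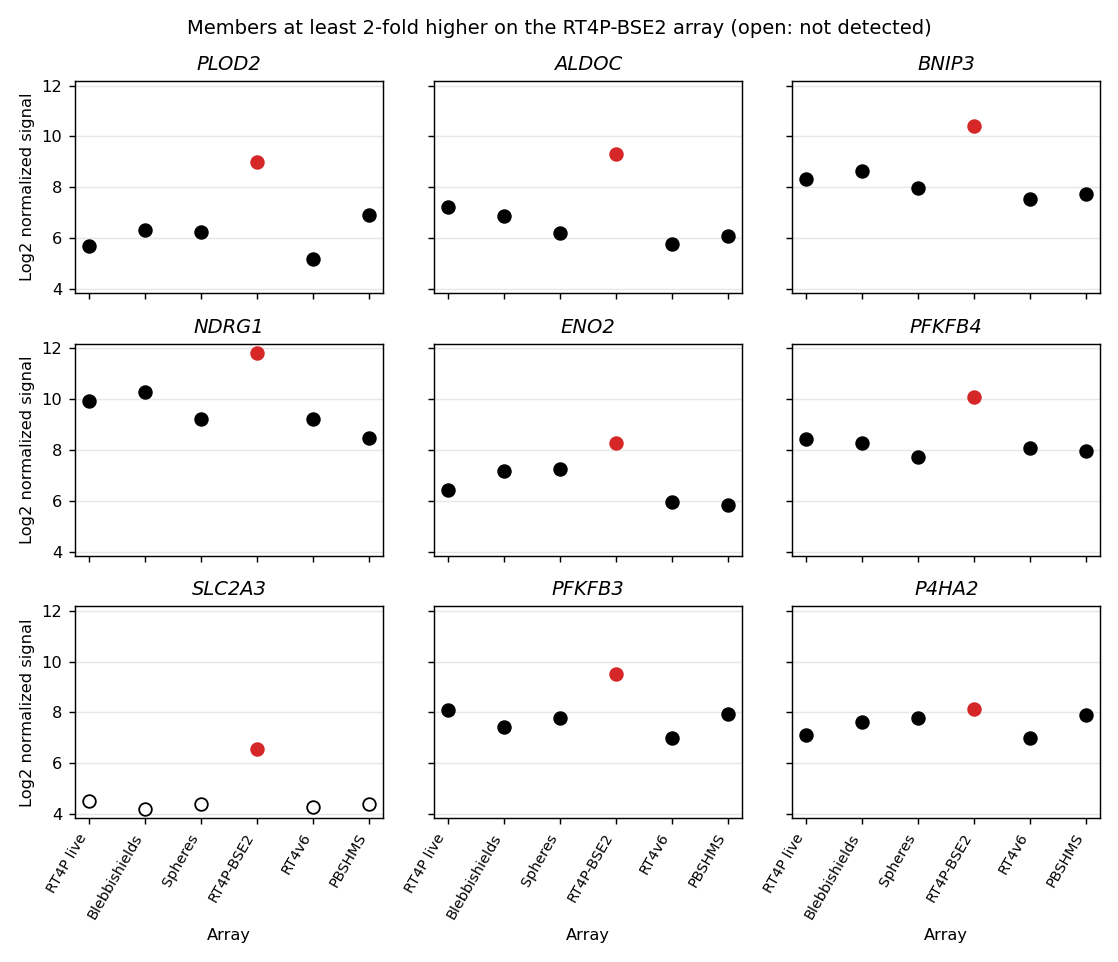
Points give the log2 normalized signal (y axis) of the 9 members at least 2-fold higher in RT4P-BSE2, on each of the 6 arrays (x axis, 1 point per array), with open points for values not detected. RT4P-BSE2, in red, is the highest point in all 9 panels, and P4HA2 is the panel where other arrays come closest.

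The enzymes that modify collagen gave the largest single difference. PLOD2, a lysyl hydroxylase that prepares collagen for crosslinking, stood at 5.68 in RT4P live cells, 6.34 in blebbishields, 6.23 in spheres, 8.99 in RT4P-BSE2, 5.17 in RT4v6 and 6.91 in PBSHMS. RT4P-BSE2 was alone near the top, PBSHMS was second, and RT4v6 was the lowest. The difference from RT4P live cells was 9.96-fold higher in RT4P-BSE2 and 2.36-fold higher in PBSHMS. The size in RT4P-BSE2 depended on the processing. Its log2 difference was 3.32 here and 2.17 without background correction. By the mean of its probes it was 2.21, and with the authors' processed values 2.23, each still past 2-fold. A further PLOD2 probe was detected in RT4P-BSE2 only, where it was at least 1.93-fold higher, so it pointed the same way without passing 2-fold. P4HA2, a collagen prolyl 4-hydroxylase, had values of 7.10 in RT4P live cells, 7.61 in blebbishields, 7.77 in spheres, 8.12 in RT4P-BSE2, 7.01 in RT4v6 and 7.91 in PBSHMS. Here RT4P-BSE2 and PBSHMS were close, and the 2.04-fold difference from RT4P live cells was at 1.71-fold by the other detected probe and under 2-fold without background correction (log2 0.73). P4HA1, the related alpha subunit, read 9.19 in RT4P live cells, 8.36 in blebbishields, 8.14 in spheres, 9.81 in RT4P-BSE2, 9.17 in RT4v6 and 9.16 in PBSHMS. It was 1.54-fold higher in RT4P-BSE2 and below RT4P live in both post-apoptotic samples. LOX, the oxidase that crosslinks collagen, was detected on the RT4P-BSE2 array only, at 5.59, with a bound of at least 1.40-fold.

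Mitophagy receptors mark mitochondria for removal. BNIP3 stood at 8.32 in RT4P live cells, 8.63 in blebbishields, 7.96 in spheres, 10.41 in RT4P-BSE2, 7.54 in RT4v6 and 7.75 in PBSHMS. It was 4.26-fold higher in RT4P-BSE2 than in RT4P live cells, and the other derived live lines lay below RT4P live. BNIP3L, its relative, read 9.17 in RT4P live cells, 8.27 in blebbishields, 9.10 in spheres, 10.06 in RT4P-BSE2, 9.22 in RT4v6 and 8.76 in PBSHMS. RT4P-BSE2 was again highest, at 1.85-fold by the chosen probe and 1.44-fold by the other, and blebbishields were lowest, at 1.86-fold and 2.02-fold lower.

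By the chosen probes all 13 glycolytic enzymes were above 0 in RT4P-BSE2 against RT4P live, with a median log2 difference of 0.36, and 2 passed 2-fold. PGAM1 was at 0.002 by its chosen probe and at -0.17 by its other detected probe, so the direction was not uniform over probes. ALDOC, the aldolase best known from brain, had values of 7.23 in RT4P live cells, 6.86 in blebbishields, 6.19 in spheres, 9.32 in RT4P-BSE2, 5.79 in RT4v6 and 6.10 in PBSHMS. The 6 arrays spread widely for this gene, with RT4P-BSE2 4.26-fold above RT4P live cells and RT4v6 2.72-fold below. ENO2, the enolase best known from neurons, stood at 6.41 in RT4P live cells, 7.17 in blebbishields, 7.24 in spheres, 8.29 in RT4P-BSE2, 5.95 in RT4v6 and 5.84 in PBSHMS. It was 3.67-fold higher in RT4P-BSE2, and both post-apoptotic samples also lay above RT4P live, at 1.69-fold and 1.78-fold. The remaining 11 enzymes differed by log2 0.00 to 0.71, with HK2, which traps glucose in the cell, at 0.71, lactate dehydrogenase LDHA at 0.59 and phosphoglycerate kinase PGK1 at 0.58. GAPDH, often used as a reference gene, read 13.67 in RT4P live cells, 13.52 in blebbishields, 13.59 in spheres, 13.69 in RT4P-BSE2, 13.46 in RT4v6 and 13.34 in PBSHMS. Its difference in RT4P-BSE2 was 0.02 by the chosen probe and 0.12 and 0.30 by the others.

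The other enzymes, in pathway order, are given by their range. HK1, the widespread hexokinase, ran from 11.14 (PBSHMS) to 11.56 (RT4v6). HK2 ran from 8.35 (blebbishields) to 9.46 (RT4P-BSE2), and its 2 probes differed in sign in blebbishields, at -0.40 and 0.61. GPI, which isomerises glucose 6-phosphate, ran from 9.48 (RT4v6) to 10.65 (blebbishields), the widest range of a chosen probe among enzymes without a call. The platelet-type phosphofructokinase PFKP ran from 8.90 (blebbishields) to 9.95 (RT4P-BSE2), and the aldolase ALDOA from 11.56 (RT4P live) to 11.89 (RT4v6). TPI1, which interconverts the triose phosphates, ran from 12.71 (PBSHMS) to 13.11 (RT4P-BSE2). PGK1 ran from 11.43 (spheres) to 12.18 (RT4P-BSE2), and the mutase PGAM1 from 10.55 (PBSHMS) upward, with RT4v6 the highest. The enolase ENO1 ran from 12.58 (blebbishields) to 12.91 (RT4P-BSE2), and LDHA from 12.48 (PBSHMS) to 13.31 (RT4P-BSE2). By the chosen probes, apart from ALDOC and ENO2 only HK2, GPI and PFKP spanned 2-fold over the 6 arrays. Other detected probes of PGK1 and LDHA also did. That of PGK1 ran from 9.31 (blebbishields) to 10.59 (RT4P-BSE2), and that of LDHA from 12.12 (PBSHMS) to 13.17 (RT4P-BSE2).

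The flux regulators set the pace of glycolysis and the fate of pyruvate. PFKFB3, which makes the activator of phosphofructokinase, stood at 8.11 in RT4P live cells, 7.41 in blebbishields, 7.80 in spheres, 9.50 in RT4P-BSE2, 6.98 in RT4v6 and 7.95 in PBSHMS. It was 2.63-fold higher in RT4P-BSE2, and its other probe gave 2.48-fold. PFKFB4, a related enzyme, had values of 8.41 in RT4P live cells, 8.26 in blebbishields, 7.71 in spheres, 10.06 in RT4P-BSE2, 8.09 in RT4v6 and 7.94 in PBSHMS. RT4P-BSE2 was 3.14-fold above RT4P live, and the other 5 arrays lay between 7.71 and 8.41. PDK1, which inhibits pyruvate dehydrogenase, was near the detection limit throughout, between 4.78 and 5.14.

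Of the transporters, SLC2A3, a high-affinity glucose transporter, was detected on the RT4P-BSE2 array only, at 6.57, with undetected values of 4.21 to 4.52 elsewhere. It was at least 2.76-fold higher there, a call that was lost without background correction (log2 0.62) and with the authors' processed values (0.63). SLC2A1, the widespread glucose transporter, read 9.98 in RT4P live cells, 10.37 in blebbishields, 10.26 in spheres, 10.90 in RT4P-BSE2, 10.46 in RT4v6 and 9.33 in PBSHMS. It was 1.90-fold higher in RT4P-BSE2 and 1.56-fold lower in PBSHMS. SLC16A3, a lactate exporter, was 1.08-fold lower in RT4P-BSE2, and its highest value, 7.05, was in blebbishields.

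NDRG1, a stress-responsive gene induced by low oxygen, stood at 9.92 in RT4P live cells, 10.27 in blebbishields, 9.23 in spheres, 11.80 in RT4P-BSE2, 9.23 in RT4v6 and 8.45 in PBSHMS. It was 3.68-fold higher in RT4P-BSE2, while PBSHMS was the lowest array. ANKRD37, an ankyrin repeat gene induced by HIF, had values of 5.72 in RT4P live cells, 6.65 in blebbishields, 4.76 in spheres, 6.66 in RT4P-BSE2, 5.83 in RT4v6 and 5.76 in PBSHMS. RT4P-BSE2 and blebbishields were level, both above RT4P live at 1.92-fold and 1.90-fold, and it was not detected in spheres. ERO1L, the disulfide-forming oxidase now named ERO1A, was 1.78-fold higher in RT4P-BSE2. Under its older name, KDM3A was highest in RT4P-BSE2 at 7.75, against 6.88 in RT4P live cells, a 1.84-fold difference. BHLHE40 stood at 9.81 in RT4P-BSE2 and 9.03 in RT4P live cells, at 9.41 in blebbishields, and at 7.08 to 7.41 on the other 3 arrays.

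Both measured HIF alpha subunits stayed under 2-fold between RT4P-BSE2 and RT4P live cells. HIF1A, with 3 detected probes, read 8.72 in RT4P live cells, 8.42 in blebbishields, 8.23 in spheres, 8.65 in RT4P-BSE2, 8.76 in RT4v6 and 8.62 in PBSHMS. The 6 values lay within a narrow range, and RT4P-BSE2 differed from RT4P live cells by -0.07 on the chosen probe and by 0.19 and 0.23 on the others. The chosen probe was highest in RT4v6, and the other two were highest in RT4P-BSE2. EPAS1, which encodes HIF-2 alpha, had values of 11.04 in RT4P live cells, 12.15 in blebbishields, 11.66 in spheres, 11.20 in RT4P-BSE2, 11.67 in RT4v6 and 11.98 in PBSHMS. RT4P live was the lowest array and RT4P-BSE2 the next, at 1.11-fold. EGLN1, the main HIF prolyl hydroxylase, read 6.61 in RT4P live cells, 6.47 in blebbishields, 6.70 in spheres, 7.22 in RT4P-BSE2, 5.65 in RT4v6 and 6.57 in PBSHMS. RT4P-BSE2 was 1.52-fold above RT4P live and RT4v6 was the lowest, 1.95-fold below. EGLN3, a hydroxylase induced by HIF, was 1.03-fold higher in RT4P-BSE2. Of the secreted factors, VEGFA, the main angiogenic growth factor, was 1.26-fold higher and ADM, a vasodilator peptide, 1.16-fold higher.

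RT4P-BSE2 was also set against the highest of the other 5 arrays for each gene. Of 33 members detected on that array, 8 exceeded every other array by at least 2-fold (24.2%), where 0.669% of 13599 genes did. Without genes detected on RT4P-BSE2 only it was 7 of 31, against 0.651%. ALDOC exceeded the next array 4.26-fold, PLOD2 4.23-fold, BNIP3 3.43-fold, PFKFB4 3.14-fold, NDRG1 2.89-fold and PFKFB3 2.63-fold. SLC2A3 was at least 2.15-fold and ENO2 2.06-fold above the next array. P4HA2 was 1.16-fold above PBSHMS. EGLN3 (2.17-fold), EPAS1 (1.94-fold) and SLC16A3 (1.89-fold) lay furthest below the highest other array, which was spheres for EGLN3 and blebbishields for the other two.

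**Figure D3:**
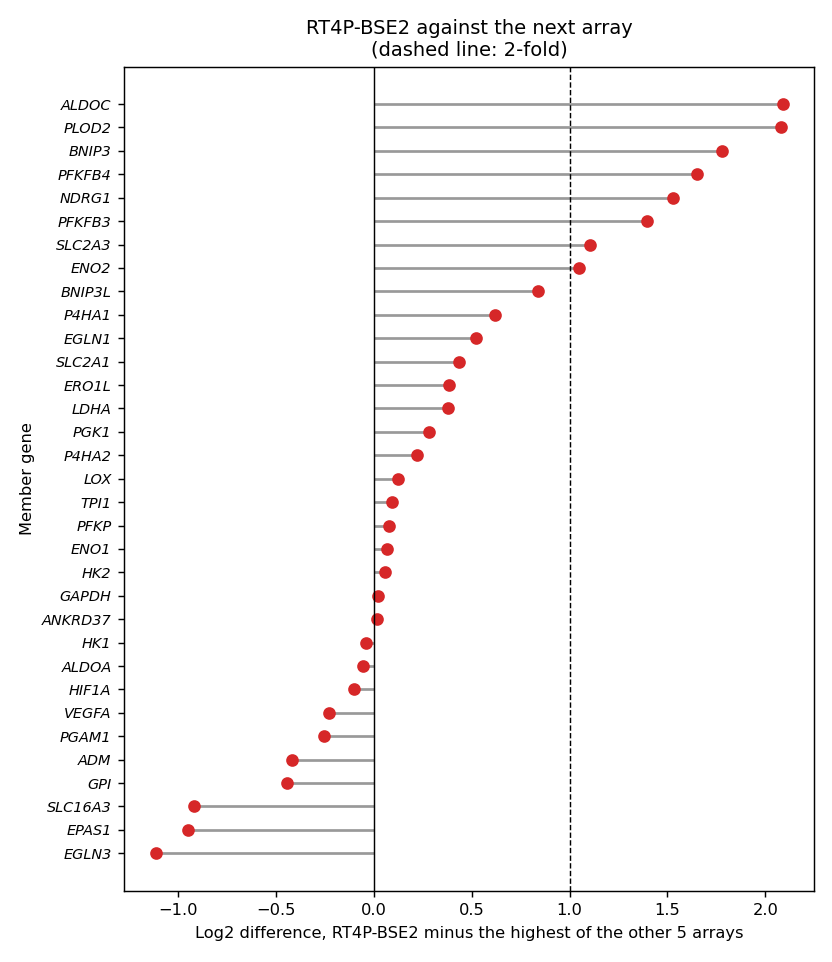
Each point is a member detected in RT4P-BSE2, with the log2 difference between RT4P-BSE2 and the highest of the other 5 arrays on the x axis and a dashed line at 2-fold. The 8 genes right of that line run from ENO2 (1.05) to ALDOC (2.09), and EGLN3 is furthest left at -1.12.

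Related genes outside the member list were read in the same comparison. Of 28 other hypoxia-responsive genes measured, 5 were at least 2-fold higher in RT4P-BSE2 (1.3% of all genes were) and 0 were lower (0.271% of all genes). Their median was 0.47 on the log2 scale. CA9, the carbonic anhydrase widely used as a hypoxia marker, stood at 9.65 in RT4P-BSE2 and 5.63 in blebbishields and was not detected on the other 4 arrays, so it was at least 23.2-fold higher than in RT4P live cells. The adenylate kinase AK3L1, now AK4, was 3.05-fold higher and ANGPTL4, a lipase inhibitor, 2.91-fold. STC2, named after its value was seen, was also among the 5. Among 13 HIF pathway partners 0 passed 2-fold and the median was -0.03. Among 25 other glycolysis and pyruvate genes 0 passed 2-fold and the median was 0.04, with the liver-type phosphofructokinase PFKL highest at 1.83-fold. The 7 pentose phosphate genes had a median of -0.19 and a range of -0.56 to 0.04. Urothelial markers differed on the same array, with 5 of 17 at least 2-fold higher, among them KRT20 (4.72-fold) and the uroplakin UPK2 (3.16-fold), and 1 lower. This was not particular to RT4P-BSE2, as 4 of 17 were higher than in RT4P live cells in RT4v6 and 5 of 17 in PBSHMS. The part of these markers in the result was not tested.

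Blebbishields were compared with RT4P live cells. The members as a list did not stand apart here, with 1 of 32 at least 2-fold higher (7.09% of all genes were) and a median of -0.02. None of the 32 was at least 2-fold lower, against 4.77% of all genes. EPAS1 was the 1, at 2.16-fold higher. The next largest upward differences were ANKRD37 (1.90-fold), the lactate exporter SLC16A3 (1.75-fold), ENO2 (1.69-fold) and PLOD2 (1.58-fold), and the largest downward ones BNIP3L (1.86-fold) and P4HA1 (1.78-fold). VEGFA had its highest value here, at 1.48-fold by the chosen probe and 1.81-fold by the other. Of the 13 glycolytic enzymes 6 were above 0, where 44.0% of all genes were, and their median was -0.05. This was the dimmest array and the comparison with the largest probe SD, 0.40. With no normalization between arrays EPAS1 was at 0.42, under 2-fold, and the medians were -0.65 for the members and -0.70 for all genes.

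In the related lists, STC2, a secreted glycoprotein of the stress response, was at least 12.3-fold higher in blebbishields and DDIT4, an inhibitor of mTORC1, 2.95-fold higher. TXNIP, which restrains glucose uptake, was 3.51-fold lower and PYGL, the liver-type glycogen phosphorylase, 3.41-fold lower. Counts for that list were 2 higher and 5 lower of 27, where 7.09% of all genes were higher and 4.77% lower. ARNT2, an alternative HIF partner, was 2.55-fold lower. On the same array FCGR3A, a leukocyte marker, stood at 7.54, against 4.75 (undetected) in RT4P live cells, and the endothelial marker VWF was 2.58-fold higher. CD14, the other leukocyte marker detected there, was at least 1.67-fold higher, while PTPRC and CD3E were not detected. The leukocyte marker ITGAM went the other way. It was detected in RT4P live cells but not in blebbishields, at least 1.73-fold lower. The summed raw leukocyte signal, 674.9, lay within the range of the other arrays. That sum includes background, and the median raw signal was 91.9 here against 101.2 to 108.9 elsewhere, so it does not show an absence of leukocyte RNA. The part of these markers in the values above was not tested.

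Spheres were compared with RT4P live cells. Of 32 members 1 was at least 2-fold higher (3% of all genes were) and 3 were at least 2-fold lower (3.31% of all genes). The members' median was -0.07 on the log2 scale. EGLN3 stood at 7.24 in RT4P live cells, 6.62 in blebbishields, 8.40 in spheres, 7.28 in RT4P-BSE2, 7.25 in RT4v6 and 7.35 in PBSHMS. Spheres were the highest array and blebbishields the lowest, and the sphere value was 2.23-fold above RT4P live. ADM read 11.23 in RT4P live cells, 11.04 in blebbishields, 9.60 in spheres, 11.45 in RT4P-BSE2, 11.37 in RT4v6 and 11.86 in PBSHMS. Spheres were the lowest of the 6, 3.09-fold below RT4P live. ALDOC was 2.06-fold lower and P4HA1 2.07-fold lower, both under 2-fold without between-array normalization (-0.96 for each). Without background correction EGLN3 was at 0.85, ALDOC at -0.59 and P4HA1 at -0.88, all under 2-fold, and ADM stayed past it under each of the 5 alternatives. BHLHE40, under its older name and outside the count, was 3.89-fold lower. ENO2 and P4HA2 were 1.78-fold and 1.59-fold higher.

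Among related genes, CITED2, which competes with HIF for its coactivators, was 2.84-fold higher in spheres, and 0 of the other 12 HIF pathway partners measured passed 2-fold. PGD, an oxidative enzyme of the pentose phosphate pathway, was 1.99-fold higher, while 0 of 25 other glycolysis and pyruvate genes passed 2-fold. The wider hypoxia list split, with 3 of 26 higher (3% of all genes were) and 3 lower (3.31% of all genes). STC2 was at least 3.73-fold higher and the growth factor binding protein IGFBP3 3.36-fold higher, and PYGL was 2.81-fold lower.

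Spheres were also compared with blebbishields, the sample without the 4 h of transformation. Of 31 members 1 was at least 2-fold higher (3.01% of all genes) and 3 lower (5.99% of all genes), and the median was -0.11. EGLN3 was 3.44-fold higher. ADM was 2.71-fold lower, NDRG1 2.06-fold and ANKRD37, not detected in spheres, at least 3.12-fold lower. BNIP3L was 1.78-fold higher by the chosen probe and 2.15-fold by the other, which put it at 9.10, near its 9.17 in RT4P live cells. BHLHE40 was 5.04-fold lower and DDIT4 6.36-fold lower. With no normalization between arrays ADM (-0.59), NDRG1 (-0.16) and ANKRD37 (-0.90) were under 2-fold, and the medians were 0.71 for the members and 0.76 for all genes. Without background correction NDRG1 (-0.95) and ANKRD37 (-0.69) were also under 2-fold. EGLN3 stayed past 2-fold under each of the 5 alternatives.

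RT4v6, the line passaged in mice, was compared with RT4P live cells. Of 32 members 0 were at least 2-fold higher (1.15% of all genes) and 2 were lower (2.41% of all genes), with a median of 0.08. ALDOC was 2.72-fold lower and PFKFB3 2.19-fold lower, but the other PFKFB3 probe was 1.29-fold higher, and both calls were lost without background correction (-0.77 and -0.79). EGLN1 (1.95-fold), BNIP3 (1.72-fold) and NDRG1 (1.61-fold) were also below RT4P live, and HK2 (1.58-fold) and EPAS1 (1.54-fold) above. In the related lists ANGPTL4 was 4.53-fold lower, CITED4, another CITED family coactivator-binding gene, 2.37-fold lower and the phosphoglucomutase PGM1 2.06-fold lower. PC, pyruvate carboxylase, was at least 2.22-fold higher. BHLHE40 was 3.70-fold lower.

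PBSHMS, the fusion line, was compared with RT4P live cells. Of 32 members 1 was at least 2-fold higher (1.8% of all genes) and 2 were lower (2.04% of all genes), with a median of -0.05. NDRG1 was 2.76-fold lower, its lowest value on the 6 arrays, and ALDOC 2.19-fold lower, a call lost without background correction (-0.63) and with the authors' processed values (-0.65). PLOD2 was 2.36-fold higher, a call also lost without background correction (0.61) and by the mean of its probes (0.39). EPAS1 was 1.92-fold higher, while VEGFA was 1.85-fold and SLC2A1 1.56-fold lower. HK2 was 1.26-fold higher by the chosen probe and 2.04-fold by the other. BHLHE40 was 3.08-fold lower, PGM1 2.03-fold lower, the carbonic anhydrase CA12 2.70-fold lower and PGD 2.36-fold lower.

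**Figure D4:**
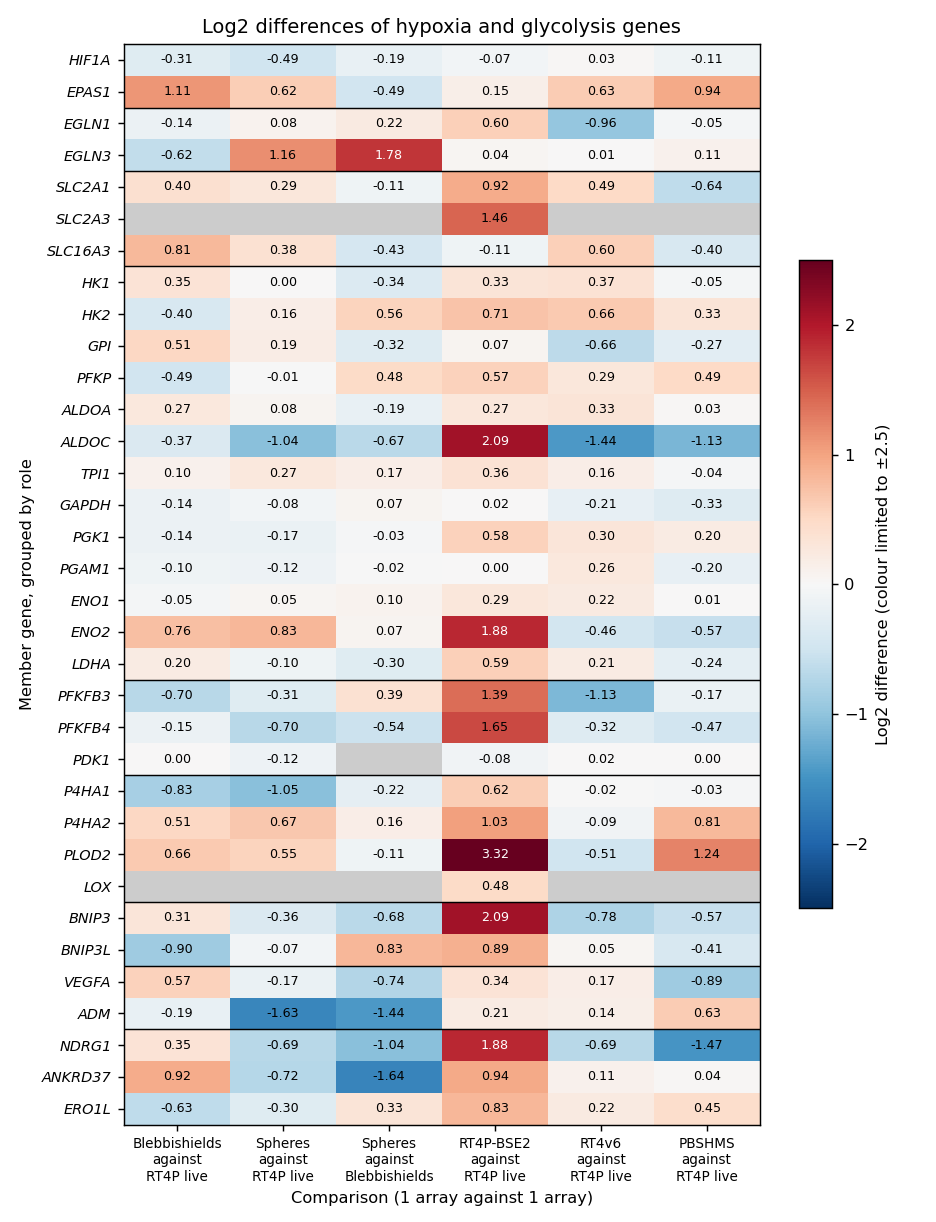
Each cell gives the log2 difference of a member (rows, ordered by role) in a comparison of 1 array with another (columns), in red where higher and blue where lower, and grey cells were detected on neither array. The RT4P-BSE2 column runs from -0.11 (SLC16A3) to 3.32 (PLOD2), and the other columns hold 1 to 4 values past 1 or -1.

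Set side by side, several members lay on opposite sides of RT4P live cells in the 3 derived live lines. ALDOC was 4.26-fold higher than RT4P live cells in RT4P-BSE2, 2.72-fold lower in RT4v6 and 2.19-fold lower in PBSHMS. NDRG1 was 3.68-fold higher, 1.61-fold lower and 2.76-fold lower in the same order, and BNIP3 4.26-fold higher, 1.72-fold lower and 1.48-fold lower. PLOD2 was 9.96-fold higher in RT4P-BSE2, 1.42-fold lower in RT4v6 and 2.36-fold higher in PBSHMS. EPAS1 lay above RT4P live in every comparison with it, from 1.11-fold in RT4P-BSE2 to 2.16-fold in blebbishields. These 5 comparisons share the RT4P live array, so an error in that array enters each of them.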

How the data were processed

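Total RNA of each of the 6 samples went onto 1 single-colour Illumina HumanHT-12 version 4 array, per the labels. The authors deposited non-normalized signal intensity for 47322 probes, with a detection p-value per probe and array, per the file headers. They also deposited processed intensity values, which have equal quantiles on all arrays. Per the submitters' processing notes GenomeStudio was used, with settings not given in the sources used here. No bead counts are given, so the number of arrays limits the precision.

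In R 4.3.3, neqc of limma 3.58.1 corrected the background by using detection p-values to infer the negative controls. Quantile normalization and log2 followed, after an offset of 16. The offset understates folds of dim genes. A gene was its probe of highest mean among those detected (p-value under 0.01 on 1 or more arrays), and was measured where detected on either array compared. An undetected value was raised to the lowest detected value of that array, and the fold is then a bound. With 1 array per group no test was run. Members, related lists and markers were chosen with earlier results of these data known. Values on all arrays are printed for members past 2-fold in any of the 6 comparisons, the HIF alpha subunits and GAPDH, and for a few members added to complete a role. At most 4 genes of a related list were named per comparison, by size, with exceptions stated or carried from another comparison. Some genes of these lists are not reported here. Alternatives were no between-array normalization, no background correction, a detection p-value under 0.05, the mean over probes and the authors' processed values. One more, leaving out genes detected on the RT4P-BSE2 array only, was chosen after seeing the data. The steps were tested on simulated data. Python 3.11.15 was used for counts. Gene synonyms, promoters and their sequences are from RefSeq, GRCh38.p14.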

Additional observations from a re-analysis of the deposited data

How the results depend on the processing

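The RT4P-BSE2 result kept its direction under all 5 alternatives, with 7 to 9 members at least 2-fold higher and 0 lower, and a median log2 difference of 0.48 without background correction. Leaving out genes detected on its array only, added after the data were seen, gave 8 higher and a median of 0.58. Without between-array normalization, blebbishields against RT4P live gave 0 members higher and 9 lower with a median of -0.65, spheres against blebbishields 8 higher and 0 lower with a median of 0.71, spheres against RT4P live 1 lower, and PBSHMS a median of -0.21. In these settings the share of 2-fold genes that were higher moved from 59.8% to 9.2%, from 33.5% to 95.8%, from 47.5% to 59.0% and from 46.9% to 31.1%. For blebbishields against RT4P live and spheres against blebbishields the medians of all genes, given above, shifted much as those of the members did. The share of all genes called is not given for the alternatives, so their counts are not a result particular to the members. Without background correction, and equally with the authors' processed values, spheres against RT4P live gave 0 higher and 1 lower, spheres against blebbishields 1 lower, RT4v6 0 lower, and PBSHMS 0 higher and 1 lower. In RT4P-BSE2 these 2 settings moved the higher share of 2-fold genes from 82.7% to 95.2%. With the mean over probes, RT4v6 gave 1 lower and PBSHMS 0 higher. Of 23 gene values past 2-fold, 17 stayed past it without between-array normalization, 12 without background correction, 12 with the authors' values, 20 with the mean over probes and 23 with the looser detection limit, and none reversed. No paired analysis was possible because each group has 1 array, and no replicate could be left out. The causes of these changes were not tested. Dim genes such as SLC2A3, LOX and PDK1 are limited by their signal over background.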
